A study of Homo sapiens with 4 samples.

Results

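The BCL2 family decides at the mitochondrial outer membrane whether a cell enters apoptosis, and 10 of its genes were followed here in WT cells and ZCCHC4 KO1 cells. They were taken by name, through their Entrez identifiers, from a table of 16658 genes, and 10 of 10 were listed. RNA was sequenced from WT cells (2 libraries) and from ZCCHC4 KO1 cells (2 libraries), in which ZCCHC4 had been knocked out with CRISPR/Cas9. All 4 libraries were labelled HepG2, a line established from a human liver tumor, and untreated, and the cells were grown in DMEM with serum to near confluence. The knockout was represented by 1 line, KO1, so an effect of the knockout and a property of that line cannot be told apart. The study asked how loss of ZCCHC4 bears on apoptosis under oxaliplatin, and libraries of treated cells were not analysed here. The values were FPKM, a fragment count divided by transcript length and by library size, so that levels can be compared between genes. In bulk RNA, fewer cells of a type and less RNA per cell cannot be told apart.

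In healthy cells the anti-apoptotic proteins BCL2, BCL-XL (encoded by BCL2L1) and MCL1 hold the effectors BAX and BAK1 in check. BH3-only proteins, which share with the rest of the family only the short BH3 helix, bind into a groove of the anti-apoptotic proteins or act on the effectors. When the effectors are set free they form pores, cytochrome c leaves the mitochondria and caspases are activated. Of the BH3-only genes followed here, BBC3 (PUMA) and PMAIP1 (NOXA) are induced by DNA damage, BCL2L11 (BIM) is induced by forkhead factors and by JNK signalling, BID is cleaved by caspase 8 below death receptors, and HRK (harakiri) is best known from neurons deprived of growth factors. In hepatocytes BCL-XL and MCL1 are the main guards of survival.

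HRK had the largest fold difference of the 10 genes. The WT libraries had 0.55 and 0.52 FPKM, whereas the ZCCHC4 KO1 libraries had 2.90 and 2.3. The mean was 0.535 ± 0.0212 in WT and 2.60 ± 0.424 in ZCCHC4 KO1 (SD, n = 2 each), a ratio of 4.86. HRK entered the test only through its values in ZCCHC4 KO1, the group where it was high, and there its adjusted p from limma was 0.0235, whereas with no filter on low values it was 0.0522. BCL2L1, BAX, BCL2L11 and BID were also higher in both ZCCHC4 KO1 libraries than in either WT library, by factors of 1.27 to 1.68 in mean FPKM, and MCL1 was lower in both, but none of these 5 passed the test.

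The test compared log2(FPKM + 1) with limma over 10726 genes, those with at least 1 FPKM in 2 or more libraries, with Benjamini-Hochberg adjustment. All 10 genes passed that filter, HRK through the ZCCHC4 KO1 libraries alone. At the study's thresholds (P below 0.05 and FDR below 0.001, with a 2-fold change or more) 0 of the 10 genes were called higher and 0 lower by limma, against 0.0186 percent of all tested genes called higher and 0.0559 percent called lower. That is 2 higher and 6 lower of 10726 genes, whereas the study, which names no test, reported many more at those thresholds. The limma calls are therefore not the study's own calls for the 10 genes. At an unadjusted p under 0.05, 4 of the 10 were higher and 0 lower, against 8.96 percent higher and 13.9 percent lower of all tested genes. With the FDR relaxed to 0.05 and the same fold change, HRK was called higher and 0 of the 10 lower, a call that was lost with no filter and could not be made with a minimum FPKM of 5, against 0.932 percent higher and 3.25 percent lower of all tested genes. Without a limit on the fold change, 1 of the 10 had an adjusted p below 0.05, HRK again, against 1.5 percent of all tested genes on the higher side and 4.48 percent on the lower side. The groups did not overlap for 6 of the 10 genes, 5 higher and 1 lower in ZCCHC4 KO1, while among all tested genes both ZCCHC4 KO1 libraries were above both WT libraries for 23.1 percent and below them for 28.5 percent. The median log2 fold change of the 10 genes was 0.18, and that of all tested genes was -0.03. Nothing in the labels says that the libraries of a group came from separate cultures, so these p-values measure the spread between libraries, which may be technical.

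**Figure D1:**
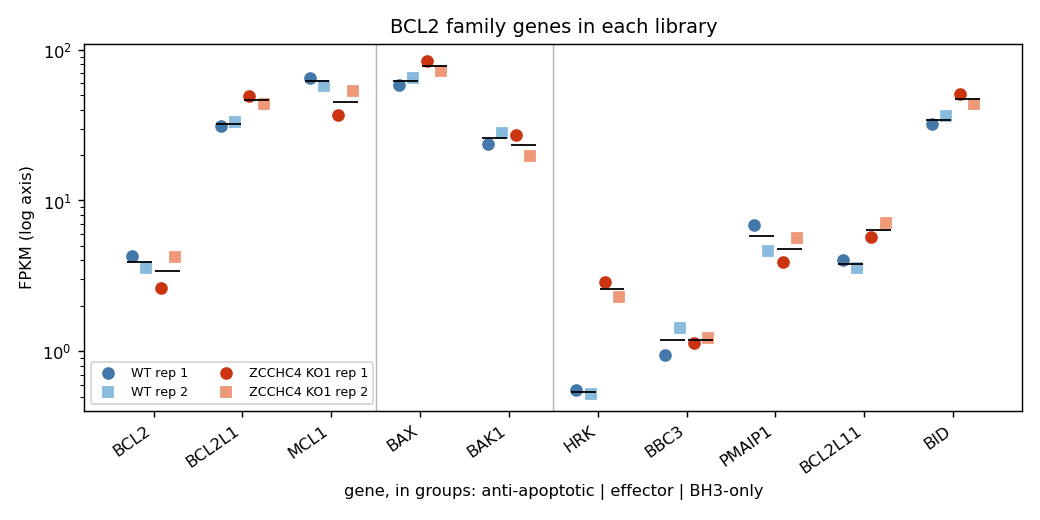
FPKM of the 10 genes (log axis) in each of the 4 libraries, with WT in blue and ZCCHC4 KO1 in red, circles for replicate 1 and squares for replicate 2, and a black line at each group's mean. HRK, at 0.52 to 0.55 in WT and 2.3 to 2.90 in ZCCHC4 KO1, shows the widest gap between the groups.

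Some facts of the whole table bear on these values. ZCCHC4 itself, on chromosome 4 from 25312774 to 25370383, had an FPKM of 7.22 and 5.44 in WT, compared with 1.08 and 2.29 in ZCCHC4 KO1 (log2 fold change of -1.48 ± 0.287 as standard error, limma adjusted p = 0.0448), so the libraries followed their labels. FPKM carries no read totals, and the depth is unknown. Among short transcripts the commonest lowest step, for an assumed fragment of 200 bases, lay between 0.04 and 0.05 FPKM times kilobases in each of the 4 libraries. Within each group the libraries differed along transcript GC content, with a Spearman correlation across 10632 genes of 0.724 between GC content and the difference of WT replicate 2 from replicate 1, and of -0.783 for ZCCHC4 KO1. Hepatocyte markers were nearly absent from these libraries labelled HepG2. Of 15 such genes 9 were listed, 0 reached an FPKM of 1 in any library, their summed FPKM was 0.66 to 1.06, and AFP was at 0 in 3 libraries and 0.05 in the other. ALB was not among the rows used here. The keratins KRT7, KRT8 and KRT18 were at 1294.42 to 3601.92 FPKM. The epithelial markers EPCAM, at 0 to 0.03, KRT19, at 0 to 0.11, and CDH1, at 0.11 to 0.6, were nearly absent. All 6 summed to 5243.62 and 6095.28 in WT, below the 9260.13 and 7069.52 of ZCCHC4 KO1, nearly all of it from the 3 keratins. Of 3 tested, 0 passed an adjusted p of 0.05 (limma). Of 4 listed leukocyte markers the sum was 12.77 to 17.89, most of it CD68. Of the mesenchymal markers, nearly all of the sum was VIM (adjusted p = 0.125 from limma), with a summed FPKM of 563.63 and 579.44 in WT, compared with 399.81 and 427.21 in ZCCHC4 KO1, and 2 of 5 tested markers, COL1A1 and COL3A1, had an adjusted p below 0.05 from limma, both lower. LUM had a log2 fold change of 0.49 with the groups overlapping, and DCN, below the filter, was at 0.91 and 0.82 in WT but at 0 in both ZCCHC4 KO1 libraries. The part of these markers in the results below was not tested.

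The sequences before the starts of 3 of the genes are given here because HRK and BCL2L11 had the largest log2 fold changes of the 10 genes and BAX had the highest mean level. Each runs over the 250 bases before the RefSeq start (GRCh38.p14), 5′ to 3′ on the gene's strand. They lie at chr12:116881442-116881691 on the minus strand for HRK, chr2:111120664-111120913 on the plus strand for BCL2L11 and chr19:48954625-48954874 on the plus strand for BAX. Capitals mark the GC box GGGCGG (either strand) in HRK and BCL2L11, the forkhead motif GTAAACA in BCL2L11 and the E-box CACGTG, the site of MYC and related factors, in BAX.
HRK: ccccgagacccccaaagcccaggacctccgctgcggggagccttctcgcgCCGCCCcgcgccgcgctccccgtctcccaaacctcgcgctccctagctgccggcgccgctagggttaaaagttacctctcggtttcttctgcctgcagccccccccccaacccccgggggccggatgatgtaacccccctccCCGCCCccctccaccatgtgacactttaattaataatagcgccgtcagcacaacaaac
BCL2L11: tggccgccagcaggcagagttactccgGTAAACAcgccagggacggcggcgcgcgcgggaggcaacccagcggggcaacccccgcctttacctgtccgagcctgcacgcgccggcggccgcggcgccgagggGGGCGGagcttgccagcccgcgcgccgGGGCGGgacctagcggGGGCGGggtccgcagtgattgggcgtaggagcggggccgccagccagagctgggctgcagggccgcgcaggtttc
BAX: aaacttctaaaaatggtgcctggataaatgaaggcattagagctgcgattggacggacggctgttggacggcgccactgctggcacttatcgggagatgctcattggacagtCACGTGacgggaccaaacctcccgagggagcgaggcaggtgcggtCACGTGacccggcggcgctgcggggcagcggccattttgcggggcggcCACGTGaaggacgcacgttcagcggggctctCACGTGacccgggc

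The window of HRK held 2 GC boxes and 22 CpG dinucleotides, and that of BCL2L11 held 3 GC boxes, 1 forkhead motif and 34 CpG. The window of BAX held 4 E-boxes and 1 GC box. Over 35116 windows of this length before RefSeq starts, 42.6 percent held the GC box, 2.98 percent the forkhead motif and 6.34 percent an E-box, the median CpG count was 11, and 5 windows held 4 or more E-boxes. Neither the AP-1 motif TGANTCA, found in 6.57 percent of windows, nor TATAAA, found in 10.7 percent, occurred in these 3 windows. An E-box also stood in the window of BBC3, which did not separate the groups, and in windows of BID, which did. A match is a run of letters and not a measured site. Windows were found for 9 of the 10 genes; MCL1 was the other.

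Among the anti-apoptotic genes BCL2L1 was higher and MCL1 lower in both ZCCHC4 KO1 libraries, and neither passed the test. BCL2L1, on chromosome 20 from 31664452 to 31723963, had an FPKM of 30.97 and 33.11 in WT, compared with 48.98 and 43.37 in ZCCHC4 KO1. MCL1, on chromosome 1 from 150574558 to 150579610, had an FPKM of 65.33 and 57.78 in WT, compared with 36.66 and 53.18 in ZCCHC4 KO1. Both genes separated the groups, in opposite directions, and the MCL1 values of ZCCHC4 KO1 lay far apart. MCL1 exceeded BCL2L1 by factors of 2.11 and 1.75 in the WT libraries, and the same ratio was 0.748 and 1.23 in the ZCCHC4 KO1 libraries. This ratio was not tested. MCL1, whose protein turns over rapidly, thus made up 65.0 and 61.2 percent of the summed FPKM of the 3 anti-apoptotic genes in WT and 41.5 and 52.8 percent in ZCCHC4 KO1.

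For BCL2L1 the log2 fold change was 0.51 (95% interval from 0.16 to 0.86, adjusted p = 0.0988 from limma) and that of MCL1 was -0.47 (from -0.97 to 0.04, adjusted p = 0.248). BCL2, on chromosome 18 from 63123346 to 63320090, was listed at 4.27 and 3.58 in WT, compared with 2.61 and 4.25 in ZCCHC4 KO1, so that the groups overlapped (log2 fold change of -0.17, interval from -0.79 to 0.45, adjusted p = 0.743 from limma). The 3 genes summed to 97.5 ± 4.31 FPKM in WT and 94.5 ± 8.87 in ZCCHC4 KO1 (SD, n = 2 each), less apart than the libraries within a group. BCL2L1 and MCL1 each give rise to long anti-apoptotic and short pro-apoptotic forms by splicing, and values per gene do not separate them.

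BAX was the most abundant gene of the 10 in mean FPKM in both groups. BAX, on chromosome 19 from 48954875 to 48961798, had an FPKM of 58.33 and 64.99 in WT, compared with 84.64 and 72.34 in ZCCHC4 KO1, with both ZCCHC4 KO1 libraries above both WT libraries. The log2 fold change was 0.34 (95% interval from -0.02 to 0.70, adjusted p = 0.237 from limma). BAK1, the effector that resides on mitochondria in healthy cells, lies on chromosome 6 from 33572552 to 33580276. Its FPKM was 23.57 and 28.09 in WT, compared with 27.22 and 19.85 in ZCCHC4 KO1, and the groups overlapped (log2 fold change of -0.14, interval from -0.64 to 0.36, adjusted p = 0.744 from limma). BAX exceeded BAK1 by factors of 2.47 and 2.31 in WT, compared with 3.11 and 3.64 in ZCCHC4 KO1.

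Of the 5 BH3-only genes, 3 were higher in both ZCCHC4 KO1 libraries, as were 23.1 percent of all tested genes. HRK, on chromosome 12 from 116856144 to 116881441, was the least abundant of the 10 genes in both WT libraries, below BBC3, and lay above BBC3 in both ZCCHC4 KO1 libraries. On the log2(FPKM + 1) scale, which understates changes at such low values, the log2 fold change of HRK was 1.23 (95% interval from 0.77 to 1.68, adjusted p = 0.0235 from limma). Over the alternatives that could test it, the adjusted p of HRK from limma ranged from 1.1e-05 to 0.0522. Even where it was higher, HRK made up 4.52 and 3.83 percent of the summed FPKM of the 5 BH3-only genes in ZCCHC4 KO1, against 1.23 and 1.11 percent in WT.

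BCL2L11, on chromosome 2 from 111120914 to 111168445, had the next largest change. Its FPKM was 4.03 and 3.57 in WT, compared with 5.71 and 7.07 in ZCCHC4 KO1, all ZCCHC4 KO1 values above all WT values (log2 fold change of 0.62, interval from 0.11 to 1.12, adjusted p = 0.148 from limma). BID, on chromosome 22 from 17734138 to 17774665, was the most abundant BH3-only gene, with 32.13 and 36.59 FPKM in WT, compared with 50.57 and 43.81 in ZCCHC4 KO1. It made up 72.1 to 78.7 percent of the BH3-only sum in the 4 libraries. The BID values of the groups did not overlap either (log2 fold change of 0.45, interval from 0.07 to 0.82, adjusted p = 0.154 from limma). BCL2L11 is spliced into several forms of different strength, and BID acts after cleavage of its protein, neither of which these values show.

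BBC3 and PMAIP1 did not separate the groups. BBC3, on chromosome 19 from 47220824 to 47232860, was at 0.94 and 1.42 FPKM in WT, compared with 1.13 and 1.23 in ZCCHC4 KO1, with both ZCCHC4 KO1 values inside the WT range. PMAIP1, on chromosome 18 from 59899996 to 59904305, was at 6.92 and 4.64 in WT, compared with 3.92 and 5.64 in ZCCHC4 KO1. The intervals of the log2 fold change ran from -0.47 to 0.48 for BBC3 and from -0.88 to 0.43 for PMAIP1 (adjusted p = 0.986 and 0.681 from limma). The sum over the 5 BH3-only genes was 44.57 and 46.74 FPKM in WT but 64.23 and 60.05 in ZCCHC4 KO1, with a log2 ratio of the means of 0.45, and BID was the largest part of it in each library.

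Ordered by mean FPKM, several neighbours could not be told apart by their libraries. In WT the values of BAX and MCL1 overlapped at the top, followed by BID and BCL2L1, which overlapped each other, then BAK1, PMAIP1, the overlapping pair BCL2 and BCL2L11, BBC3 and HRK. In ZCCHC4 KO1 BAX stood alone at the top, the values of BID, BCL2L1 and MCL1 overlapped below it, and BAK1, BCL2L11, PMAIP1, BCL2, HRK and BBC3 followed. PMAIP1 overlapped BCL2 in ZCCHC4 KO1, as did BCL2 and HRK.

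The order of the libraries within each group followed GC content for 8 of the 10 genes. BCL2, MCL1, PMAIP1 and BCL2L11, with transcript GC contents of 36.7 to 45.5 percent, were higher in WT replicate 1 than in replicate 2 and higher in ZCCHC4 KO1 replicate 2 than in replicate 1. BCL2L1, BAX, BAK1 and BID, at 48.0 to 60.8 percent, had the opposite order in both groups. HRK, at 49.6 percent, and BBC3, at 69.7 percent, followed neither order. When each library's trend on GC content was removed, 4 of the 10 genes had an adjusted p below 0.05 on the higher side (limma), namely HRK (log2 fold change of 1.25, adjusted p = 0.00187), BID (0.50, adjusted p = 0.0154), BCL2L1 (0.43, adjusted p = 0.0209) and BCL2L11 (0.72, adjusted p = 0.0231), and 0 on the lower side. In that fit 8.11 percent of all tested genes passed on the higher side and 13.5 percent on the lower side.

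Each gene was also set beside the 20 nearest tested genes on its chromosome, 10 on each side. BCL2 and PMAIP1, which have overlapping windows on chromosome 18, stood among genes that were mostly lower. For BCL2 the neighbours had a median of -0.61 in log2 fold change, and for PMAIP1 a median of -0.66, and in each case 19 of 20 were below 0. The genes themselves were at -0.17 and -0.23, above 18 and 16 of their 20 neighbours. BCL2L11 stood among genes that were mostly higher, with a median of 0.45 and 19 of 20 above 0, and its own 0.62 was above 13 of them. Whether the shift of these stretches had a part in the values of the 3 genes was not tested.

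HRK, BCL2L1, BID and MCL1 had neighbours near 0. The medians were -0.06 for HRK, 0.06 for BCL2L1, -0.09 for BID, which had 14 such neighbours, and -0.08 for MCL1. The log2 fold change of HRK was above those of 19 of 20 neighbours, that of BCL2L1 above 18 of 20, that of BID above 14 of 14 and that of MCL1 below 19 of 20. On chromosome 19 the neighbours of BAX had a median of 0.27 and those of BBC3 a median of 0.24, where BAX was at 0.34 and BBC3 at 0.01. The neighbours of BAK1 had a median of -0.29.

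**Figure D2:**
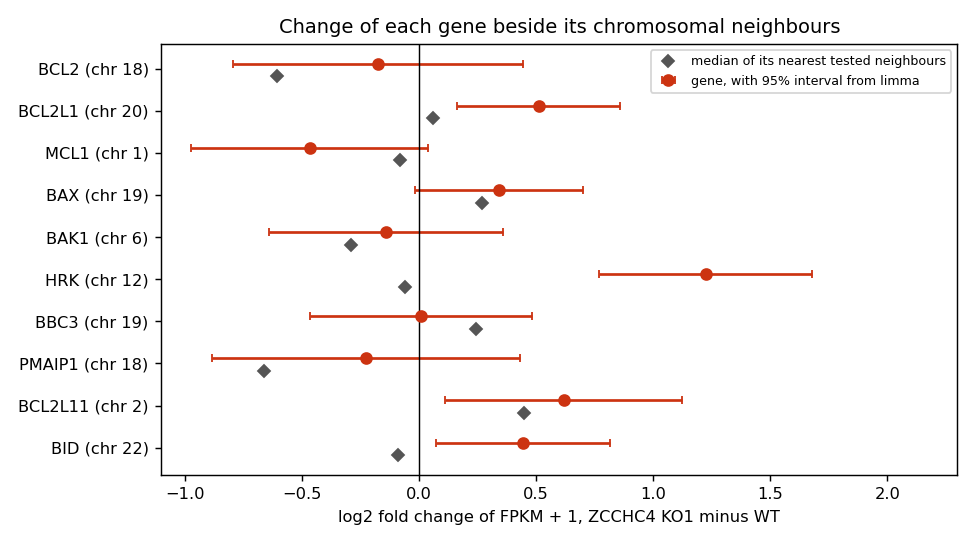
Log2 fold change of FPKM + 1 (ZCCHC4 KO1 minus WT) of each gene, as a red point with its 95% interval from limma, and the median of its nearest tested neighbours as a grey diamond. HRK stands apart at 1.23 from neighbours at -0.06, while BCL2L11 at 0.62 lies close to its neighbours at 0.45.

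Of 13 further genes of the family 11 were listed and 8 tested, and 0 had an adjusted p below 0.05 from limma in either direction, with 0 higher and 3 lower at an unadjusted p under 0.05 (8.96 and 13.9 percent of all tested genes). BNIP3L, a mitophagy receptor on chromosome 8, had the only change of 2-fold in mean FPKM among them, from 9.88 and 7.24 in WT to 3.67 and 4.85 in ZCCHC4 KO1 (log2 fold change of -0.86, adjusted p = 0.1 from limma). The 3 lower genes were BNIP3L, BCL2L13 (log2 fold change of -0.45, adjusted p = 0.197 from limma) and BNIP3 (-0.40, adjusted p = 0.199). In each of them both ZCCHC4 KO1 libraries lay below both WT libraries. The third effector-like gene, BOK, was at 9.70 and 9.38 in WT, compared with 15.51 and 11.39 in ZCCHC4 KO1, and the BH3-only gene BAD at 46.12 and 48.71 in WT, compared with 71.26 and 52.90 in ZCCHC4 KO1. Neither passed the test, though both separated the groups. The median log2 fold change of the 8 genes was 0.03.

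Of 14 genes for release from mitochondria and the apoptosome, all tested, 0 were higher and 1 lower at an adjusted p below 0.05, against 1.5 and 4.48 percent of all tested genes. That gene was VDAC3, a channel of the outer membrane, with 108.02 and 113.73 FPKM in WT, compared with 63.14 and 67.60 in ZCCHC4 KO1 (log2 fold change of -0.75, adjusted p = 0.0297 from limma). The call of VDAC3 was lost without WT replicate 1 (adjusted p = 0.165), without WT replicate 2 (0.23) and with the replicate block (0.0952), and also with no filter (0.0545), median-ratio scaling (0.0754) and eBayes without a trend (0.0584). CYCS, which encodes cytochrome c, was at 28.08 to 35.65 in the 4 libraries with the groups overlapping, and DIABLO, an antagonist of inhibitors of apoptosis, was at 34.50 and 38.90 in WT, compared with 55.44 and 47.62 in ZCCHC4 KO1 (adjusted p = 0.134 from limma). The median log2 fold change of the 14 genes was -0.03.

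Of 7 genes of the input from death receptors to BID, 0 were higher and 1 lower at an adjusted p below 0.05 (limma). Of all tested genes 4.48 percent passed on the lower side. The log2 fold change was below 0 for 7 of 7, as for 53.2 percent of all tested genes. Their median was only -0.11, and the groups overlapped for 3 of the 7. CFLAR, CASP10 and CASP8 lie close together on chromosome 2, as do TNFRSF10A and TNFRSF10B on chromosome 8. TNFRSF10B, the TRAIL receptor DR5, was at 25.61 and 25.98 FPKM in WT, compared with 13.01 and 13.23 in ZCCHC4 KO1, and the groups did not overlap (log2 fold change of -0.92, adjusted p = 0.0264 from limma). The call of TNFRSF10B was lost without WT replicate 1 (adjusted p = 0.197), without WT replicate 2 (0.213) and with the replicate block (0.0891). CASP8, whose product cleaves BID, was at 11.15 and 12 in WT, compared with 8.76 and 10.15 in ZCCHC4 KO1 (adjusted p = 0.446 from limma). BNIP3L, VDAC3 and TNFRSF10B all lie on chromosome 8, where 19 of the 20 nearest tested genes of each were lower, with medians of -0.54, -0.51 and -0.35. The windows of BNIP3L and TNFRSF10B overlap, so their counts share genes. Whether the shift of these stretches had a part in the values of the 3 genes was not tested.

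Of 10 transcription factors known to act on the family 8 were tested, and 0 had an adjusted p below 0.05 from limma, with 1 higher and 0 lower at an unadjusted p under 0.05 (8.96 and 13.9 percent of all tested genes). That gene was MYC, at 167.15 and 169.81 FPKM in WT, compared with 221.42 and 257.77 in ZCCHC4 KO1 (log2 fold change of 0.50, adjusted p = 0.0985 from limma). Whether MYC had a part in the values of BAX or of any other member was not tested. JUN, a target of JNK signalling, was at 3.28 and 3.17 in WT, compared with 4.51 and 5.03 in ZCCHC4 KO1 (adjusted p = 0.234 from limma).

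KCNIP3, which encodes DREAM, a calcium-binding repressor known to act on HRK, lay below the filter in every library and so was not tested. It was at 0.88 and 0.87 FPKM in WT, compared with 0.09 and 0.08 in ZCCHC4 KO1, a ratio of 10.3 between the means, and was named after its values were seen. In the fit with no filter, on the log2(FPKM + 1) scale, its log2 fold change was -0.79 (adjusted p = 0.0242 from limma). KCNIP3 and HRK thus differed in opposite directions between the same 4 libraries, and whether the values are linked was not tested. The neighbours of KCNIP3 on chromosome 2 had a median log2 fold change of 0.03.

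Of 6 genes that set the stability of the MCL1 protein, all tested, 0 had an adjusted p below 0.05 and 0 an unadjusted p under 0.05 (limma). HUWE1, a ubiquitin ligase of MCL1, was at 56.36 and 56.03 FPKM in WT, compared with 38.76 and 54.60 in ZCCHC4 KO1. USP9X, a deubiquitinase of MCL1, was at 18.25 and 8.33 in WT, compared with 5.46 and 10.13 in ZCCHC4 KO1, a wide spread within each group. Over the 5 further lists together, 43 of 50 genes were tested, with 0 higher and 2 lower at an adjusted p below 0.05. Among all tested genes 1.5 percent were higher and 4.48 percent lower. The median log2 fold change was -0.06 in these lists and -0.03 over all tested genes.

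The tested genes whose values lay closest to those of HRK over the 4 libraries, by the distance between log2(FPKM + 1) values centred on each gene's mean, were U2AF1L4, FGD3 and ELF3, at distances of 0.036, 0.097 and 0.105. ELF3, an epithelial transcription factor, was at 19.76 and 21.51 FPKM in WT, compared with 52.86 and 44.90 in ZCCHC4 KO1. With 4 libraries such likeness is a description only.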

How the data were processed

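Gene expression was measured by RNA-seq of total RNA in 2 libraries of WT cells and 2 of ZCCHC4 KO1 cells. The values are FPKM that the authors deposited, made from alignments by Bowtie2 against GRCh38 and quantified by RSEM. Each library had its own column, and 0 columns were left without a sample. Versions, annotation, read filters and strandedness are not given in the sources used here, so reads of overlapping genes on the other strand cannot be told apart. The methods name a BGISEQ-500 and the labels an Illumina HiSeq instrument.

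Values were used as deposited. Genes with FPKM of at least 1 in at least 2 libraries (10726) were put on a log2(FPKM + 1) scale. On these values limma 3.58.1 was run in R 4.3.3 (lmFit, eBayes with a trend, Benjamini-Hochberg adjustment). The procedure was tested on values simulated on that scale with independent noise, which lack the differences along GC content of these libraries. A fold change of 2 was a log2 fold change of 1 on that scale. Precision rests on 2 libraries per group. Symbols and positions came from RefSeq GRCh38.p14, transcript GC content from GENCODE v44 canonical transcripts (99.1 percent of tested genes). Neighbours were the nearest of 10630 tested genes placed alike by both annotations. The 10 genes, the pathway lists and the tests were chosen with earlier results of these data known. Genes named are the 10 members, ZCCHC4, tested genes of the pathway lists with an adjusted p below 0.05 or a 2-fold change in mean FPKM, the markers at 0 or highest, and the 3 genes closest to HRK. Others (BOK, BAD, BCL2L13, BNIP3, CYCS, DIABLO, CASP8, CASP10, CFLAR, TNFRSF10A, MYC, JUN, KCNIP3, HUWE1, USP9X, VDAC1, VDAC2, BMF, BCL2L14, BCL2L15 and further markers) were named for their role or after their values were seen. The values of 1 listed transcription factor are not reported here.

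Results were recomputed with no filter, a pseudocount of 0.1, a minimum FPKM of 5, median-ratio scaling, quantile normalization, eBayes without a trend, a replicate block, removal of the GC trend (natural spline, 4 degrees of freedom), leaving out each library, and 10 or 50 neighbours. A crossed pairing was added after the values had been seen.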

Additional observations from a re-analysis of the deposited data

How the results depend on the processing

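HRK was higher in ZCCHC4 KO1 in every fit that tested it. Except with no filter, each of those fits admitted HRK through its ZCCHC4 KO1 values alone. Under each scaling 5 of the 10 genes separated on the higher side, against 23.1 percent of all tested genes in the values as deposited. At the study's thresholds, 1 of the 10 genes, HRK, was called higher with median-ratio scaling, against 0. Over all 10726 tested genes the higher calls went from 2 to 115. At the looser FDR of 0.05 with a 2-fold change, the 1 gene called higher became 0 with no filter and 0 with a minimum FPKM of 5, where HRK is not tested. By adjusted p alone, 0 of the 10 genes were higher with no filter, against 82 of all 16658 genes. With a minimum FPKM of 5, 0 were higher, against 152 of 7771 tested genes, and with the GC trend removed 4 were. In that last fit 8.11 percent of all tested genes were higher. The groups of 3 rather than 1 gene separated on the lower side with that trend removed, and the share over all tested genes is not given here. Leaving out each library gave log2 fold changes of 1.104 to 1.345 for HRK, 0.426 to 0.598 for BCL2L1 and -0.729 to -0.205 for MCL1. In those fits the lone library of a group is assumed to vary like the other group.

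Of the 43 further pathway genes tested, 0 were higher and 2 lower by adjusted p, against 1.5 and 4.48 percent of all tested genes. Quantile normalization gave 1 higher, with 466 higher among all 10726 tested genes. Removal of the GC trend gave 3 higher and 4 lower, against 8.11 and 13.5 percent of all tested genes. With eBayes without a trend 1 was lower, as were 452 of all 10726 tested genes. These counts also changed when a library was left out, as did those over all tested genes. For ZCCHC4, the call was lost with a pseudocount of 0.1 (-1.92, adjusted p = 0.0551), with no filter (-1.48, adjusted p = 0.115) and without ZCCHC4 KO1 replicate 1 (-1.15, adjusted p = 0.0514, all from limma), and leaving out each library gave -1.81 to -1.15. The log2 ratio of the BH3-only sums was 0.52 with median-ratio scaling.

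The sign of genes far from any call reversed. BBC3 was at -0.15 with the GC trend removed. Leaving out each library gave -0.15 to 0.17 for BBC3, -0.45 to 0.10 for BCL2, -0.36 to 0.078 for BAK1 and -0.47 to 0.019 for PMAIP1. The effector sum ranged from 0.08 to 0.36 and the anti-apoptotic sum from -0.14 to 0.05 as log2 ratios.

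With the replicate block, HRK was still called (log2 fold change of 1.23, adjusted p = 0.0178 from limma) and 0 genes of the further lists were lower. HRK again entered that fit only through its ZCCHC4 KO1 values. Of 10726 tested genes 107 were higher and 355 lower there by adjusted p. By the labels the libraries have nothing but a number in common for pairing, and the replicate differences of WT and ZCCHC4 KO1 correlated at -0.787 over 10726 genes, which are not independent. A crossed pairing was added once the data had been seen, and with it 1 of the 10 genes was called higher at the study's thresholds (1.08 percent of all tested genes) and 5 were higher and 1 lower by adjusted p, against 21.5 and 27.8 percent of all tested genes. The median of the genes next to HRK lay between -0.09 and 0.06 over all its alternatives. The causes of these changes were not tested. The 2 libraries per group and an unknown depth limit every value, most of all the low FPKM of HRK, BBC3 and KCNIP3.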

Other observations

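Family genes below the filter on low values belong in no comparison above. BMF, a BH3-only gene linked to loss of attachment, was at 0.60 and 0.53 FPKM in WT, compared with 0.37 and 0.32 in ZCCHC4 KO1, lower in both libraries, with an adjusted p of 0.175 from limma in the fit with no filter. BCL2L14 was at 0.03 or 0 in all 4 libraries, and BCL2L15 at 0.10 to 0.34.

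The outer membrane channels did not move together. VDAC1, the most abundant, was at 303.09 and 307.84 FPKM in WT, compared with 244.71 and 252.47 in ZCCHC4 KO1, whereas VDAC2, which binds BAK1, was at 164.68 and 173.31 in WT, compared with 211.91 and 190.74 in ZCCHC4 KO1. Both separated the groups, in opposite directions, without passing the test (adjusted p = 0.234 and 0.325 from limma).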
